A study of Mus musculus with 12 samples.

Results

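The Cyp3a genes of the mouse liver were followed in the livers of mice that over-express the microRNA gene Mir483 and in their littermate controls. They were taken by name as 8 rows of the table of gene counts (Cyp3a11, Cyp3a13, Cyp3a16, Cyp3a25, Cyp3a41a, Cyp3a41b, Cyp3a44 and Cyp3a59), out of 55401 genes in all. RNA-seq was performed on 12 livers of female mice at 15 weeks of age, 6 Control and 6 iTgMir483, described by the submitters as biological replicates. The iTgMir483 mice carry a Mir483 transgene at the Rosa26 locus under a Tet-off system, in which the transactivator drives the transgene unless doxycycline is given. A CMV-Cre allele, active throughout the body, removed the Neo cassette, and the cross is named CMVxmiR in the labels. Doxycycline was given to the mothers during pregnancy and then withdrawn, so Mir483 was expressed from birth. The mice were on a C57BL/6J background and a chow diet. The livers therefore show the end state of expression since birth in many organs and not an acute effect within hepatocytes. Total counts ran from 12244123 to 30431286 in the Control libraries and from 12415140 to 15846175 in the iTgMir483 libraries, and every count is subject to counting error that grows as the count falls.

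Cyp3a genes encode cytochrome P450 enzymes of the endoplasmic reticulum of hepatocytes, which oxidise drugs, steroids and bile acids with electrons passed on by the reductase Por. Their transcription is raised by the nuclear receptors PXR (Nr1i2) and CAR (Nr1i3), which bind DNA as partners of the RXR receptors, together with the liver factors HNF4A and C/EBP. In the mouse several members also differ between the sexes under the control of the pulses of growth hormone. Cyp3a11 is the main drug-inducible member of the adult mouse liver, Cyp3a41a, Cyp3a41b and Cyp3a44 are known as female-predominant genes, Cyp3a16 is known from the fetal and young liver, and Cyp3a13 is also active in the intestine.

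The genes lie on chromosome 5 of the GRCm38 assembly. On the minus strand, from left to right, stand Cyp3a16 (ENSMUSG00000038656, chr5:145436309-145469723), Cyp3a41b (ENSMUSG00000075552, chr5:145558664-145584730), Cyp3a41a (ENSMUSG00000075551, chr5:145694049-145720136), Cyp3a44 (ENSMUSG00000054417, chr5:145773983-145805874), Cyp3a11 (ENSMUSG00000056035, chr5:145854426-145879964) and Cyp3a25 (ENSMUSG00000029630, chr5:145977194-146009618). Cyp3a59 (ENSMUSG00000061292, chr5:146079257-146113287) follows on the plus strand. These 7 genes span 677.0 kb. Cyp3a13 (ENSMUSG00000029727, chr5:137892932-137921619, minus strand) stands apart from them by 7.51 Mb.

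The genes are close copies of each other, which bears on what each count means. In 1515 aligned coding bases, Cyp3a41a and Cyp3a41b were the same at 1513 (99.9%). Cyp3a25 and Cyp3a59 shared 97.5% of their coding bases, Cyp3a41a and Cyp3a44 shared 95.8%, and Cyp3a11 and Cyp3a41a shared 95.2%. Cyp3a13 had no close copy, at 74.7 to 76.5% identity with each of the others. When each transcript was divided into all windows of 50 bases, 98.6% of the windows of Cyp3a41a and 93.5% of those of Cyp3a41b were also found in the transcripts of another gene, which left 28 and 131 windows of their own. The share was 28.0% for Cyp3a59, 26.8% for Cyp3a25, 26.5% for Cyp3a44, 14.8% for Cyp3a11, 10.7% for Cyp3a16 and 0% for Cyp3a13. By these windows, the counts of Cyp3a41a and Cyp3a41b rest on a small stretch of each gene if only uniquely placed reads were counted. The authors read 50 bases from both ends of each fragment, and single windows do not show how pairs of ends were placed. The values of Cyp3a41a and Cyp3a41b are thus uncertain as separate genes. The values of the other members rest on between 1398 and 2907 windows of their own.

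**Figure D1:**
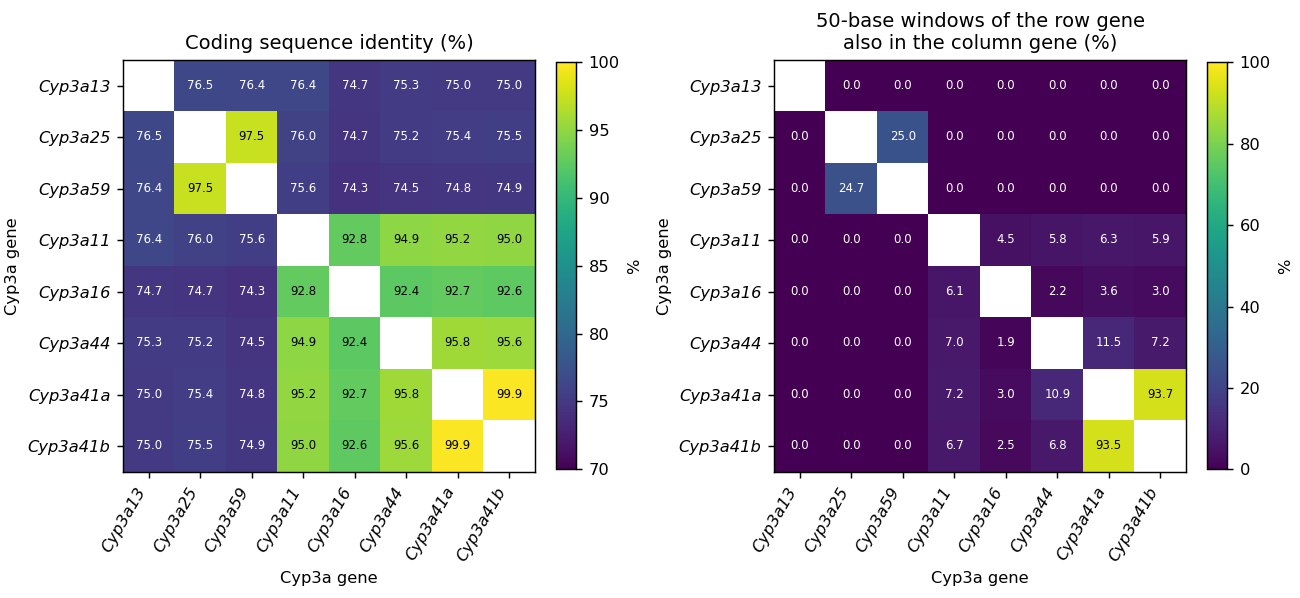
Similarity of the 8 Cyp3a genes, as identity of the coding sequences in percent (left) and as the percent of the 50-base windows of the row gene's transcript that also occur in the column gene's transcript (right). Cyp3a41a and Cyp3a41b share nearly all windows (93.7% and 93.5%), Cyp3a25 and Cyp3a59 share 25.0% and 24.7%, and Cyp3a13 shares none.

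The upstream sequences of the members fall into the same families. Of these sequences, 4 are shown because they form 2 pairs alike, of which only Cyp3a44 and Cyp3a59 were called changed with all livers fitted. Cyp3a41a was also called lower when Control replicate 1 was left out, as given below. The difference between the members of a pair was not tested. The stretches shown are the 160 bases before the gene start in RefSeq (GRCm38.p6), read along the strand of the gene. Capitals mark CAAAGTCCA, a site form bound by HNF4A, in Cyp3a41a, and the nuclear receptor motif AGGTCA in the others, where TGACCT is the same motif on the opposite strand.
Cyp3a41a (chr5:145720137-145720296, minus strand): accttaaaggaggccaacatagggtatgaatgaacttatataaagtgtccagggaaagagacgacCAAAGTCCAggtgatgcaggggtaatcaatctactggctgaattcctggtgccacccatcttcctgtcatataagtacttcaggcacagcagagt
Cyp3a44 (chr5:145805875-145806034, minus strand): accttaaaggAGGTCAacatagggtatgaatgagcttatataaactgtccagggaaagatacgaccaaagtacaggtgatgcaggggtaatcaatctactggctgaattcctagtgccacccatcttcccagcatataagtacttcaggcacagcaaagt
Cyp3a25 (chr5:146009619-146009778, minus strand): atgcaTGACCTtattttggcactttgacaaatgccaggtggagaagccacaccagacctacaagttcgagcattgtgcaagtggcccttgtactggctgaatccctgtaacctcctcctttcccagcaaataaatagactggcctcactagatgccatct
Cyp3a59 (chr5:146079098-146079257, plus strand): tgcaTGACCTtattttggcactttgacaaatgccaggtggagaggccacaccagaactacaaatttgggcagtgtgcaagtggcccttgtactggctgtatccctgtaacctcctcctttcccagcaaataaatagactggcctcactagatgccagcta
Over 250 upstream bases, Cyp3a41a and Cyp3a44 were identical at 94.4% of aligned positions and Cyp3a25 and Cyp3a59 at 94.8%, while Cyp3a11 and Cyp3a41a were identical at 71.7%.

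Motifs were searched on both strands of the 250 upstream bases of each member and of 27025 RefSeq promoters. CAAAGTCCA was found in 4 members, Cyp3a11, Cyp3a16, Cyp3a41a and Cyp3a41b, and in 0.381% of all promoters. It began 109 bases before the RefSeq start of Cyp3a11, 99 before that of Cyp3a16 and 95 before those of Cyp3a41a and Cyp3a41b. The upstream bases of Cyp3a16, Cyp3a41a and Cyp3a41b are close copies (90.9 to 99.6% identical). The 4 members are thus not independent cases to set beside the share of all promoters. The GENCODE start of Cyp3a11 lies 110 bases upstream of the RefSeq start, so by the gene end given above its site falls just inside the gene. The windows of 30 bases around it, with the site in capitals and the aligned bases of Cyp3a44 for comparison, are shown because Cyp3a44 differed from Cyp3a41a at a single place within it.
Cyp3a11 (chr5:145879944-145879973, minus strand): aagagagtacCAAAGTCCAgtgatgcaaag
Cyp3a16 (chr5:145469803-145469832, minus strand): aagagacgacCAAAGTCCAggtgatgcagg
Cyp3a41a (chr5:145720212-145720241, minus strand): aagagacgacCAAAGTCCAggtgatgcagg
Cyp3a41b (chr5:145584806-145584835, minus strand): aagagacgacCAAAGTCCAggtgatgcagg
Cyp3a44 (chr5:145805950-145805979, minus strand): aagatacgacCAAAGTACAggtgatgcagg
Counted from 1 at the 5′ end of the site, the change from Cyp3a41a to Cyp3a44 is C7A. The related motif AGTTCA was found in Cyp3a11, Cyp3a41a and Cyp3a41b and in 11.9% of all promoters, and AGGTCA in Cyp3a11, Cyp3a25, Cyp3a44 and Cyp3a59 and in 13.8%. TTCNNNGAA, the form bound by STAT5, was in 0 members and in 7.18% of promoters. A direct repeat of AGTTCA at a spacing of 3 bases and an everted repeat at a spacing of 6 bases were in 0 members, and in 0 and 0.0074% of promoters. These matches describe letters in a short window and say nothing of binding.

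The mature products of Mir483 are given with the seed (bases 2 to 8) in capitals, since a match to the seed in a 3′ UTR is the usual mark of a possible direct target.
miR-483-3p (chr7:142654932-142654952, minus strand): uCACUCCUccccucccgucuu
miR-483-5p (chr7:142654968-142654989, minus strand): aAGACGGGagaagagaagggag
The 7-base match to the seed of miR-483-3p, AGGAGTG, stood in the 3′ UTR of 10.5% of 20939 genes, and the match to the seed of miR-483-5p, CCCGTCT, in 2.67%. Neither was present in the 3′ UTRs of the 8 Cyp3a genes.

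The labels were checked before the comparison. The Mir483 gene was at 0 counts in all 6 Control libraries and at 318 to 761 counts in the iTgMir483 libraries. Xist ranged from 455.64 to 887.45 counts per 1000000 (CPM) and the Y-linked genes Ddx3y, Uty, Kdm5d and Eif2s3y had 0 counts in all 12 libraries, as the label female implies. Replicate 1 of each group stood apart from the other libraries on the second principal component, at 46.4 for Control and 40.7 for iTgMir483 on an axis that held 16% of the variance. In Control replicate 1, a list of 14 female-biased liver genes summed to 772.7 CPM, against 2787 to 3398 in the other Control livers, and a list of 12 male-biased genes summed to 3470 CPM, against 193.8 to 816.6. Since Cyp3a16, Cyp3a41a, Cyp3a41b and Cyp3a44 had their lowest Control values in this liver, values without replicate 1 are given beside the results that rest on it.

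All 8 members passed the filter on low counts and were tested among 13205 genes. A gene was called changed at an adjusted p under 0.05 with a fold change over 1.5, by edgeR's quasi-likelihood test with Benjamini-Hochberg adjustment over all genes tested. In total 1 member, Cyp3a59, was higher in iTgMir483 livers, where 8.41% of all genes tested were higher, and 2 members, Cyp3a11 and Cyp3a44, were lower, where 2.73% of all genes were lower. For either direction the count was 3 of 8 members beside 11.1% of all genes. In the same 3 members the CPM values of the groups did not overlap, as in 7.92% of all genes. The median log2 fold change (log2FC, iTgMir483 minus Control) of the 8 members was -0.90, and that of all genes tested was 0.0058. Without replicate 1 of both groups 5 of 8 members were called, as Cyp3a13 and Cyp3a41a were then also lower.

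**Figure D2:**
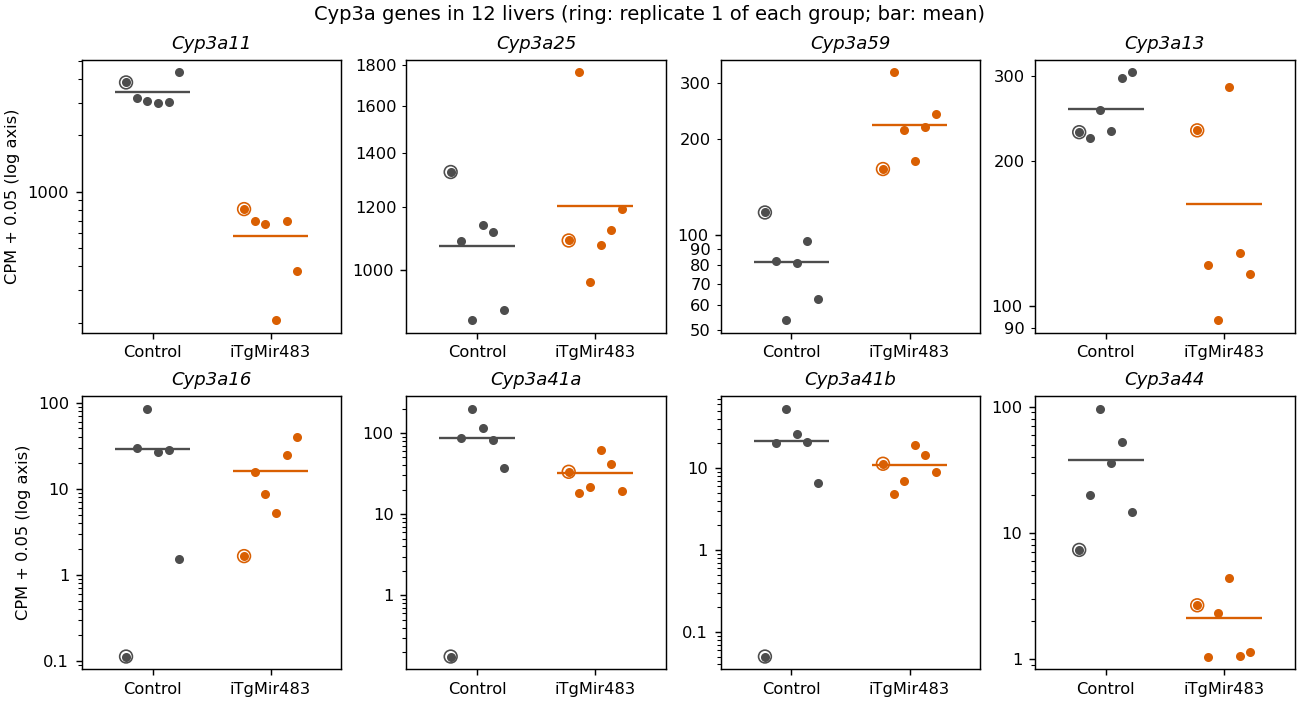
CPM of each Cyp3a gene in the 12 livers, on a log axis with 0.05 added so that a count of 0 can be drawn. Each point is 1 liver, the bar is the mean of 6, and rings mark replicate 1 of each group. The groups are apart for Cyp3a11, Cyp3a44 and Cyp3a59, and Control replicate 1 lies at the bottom for Cyp3a16, Cyp3a41a, Cyp3a41b and Cyp3a44.

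Cyp3a11, the main inducible Cyp3a enzyme, was the most abundant member in Control livers and fell. Its level ranged from 2998 through a median of 3112 to 4342 CPM in Control livers, and from 205.1 through 686.5 to 807.9 CPM in iTgMir483 livers. Every iTgMir483 liver was thus far below every Control liver. The mean was 3405 ± 557 CPM (SD, n = 6) in Control and 577.0 ± 233.0 CPM in iTgMir483 livers, which was 5.90-fold lower, with a log2FC of -2.56 (SE 0.282, adjusted p = 0.000114). The lowest iTgMir483 value, 205.1 CPM, was that of replicate 4, and replicate 6 followed with 375.9 CPM, while the other 4 livers lay between 675.3 and 807.9 CPM. The spread among iTgMir483 livers was wider than among Control livers, with a coefficient of variation of 40.4% against 16.4%. In whole livers, fewer cells of a type and less RNA per cell cannot be told apart.

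Cyp3a44, a female-predominant member, had the largest fold change of the family. Its level ranged from 7.28 through a median of 28.0 to 96.3 CPM in Control livers, and from 0.999 through 1.68 to 4.32 CPM in iTgMir483 livers. Control livers varied 13.2-fold among themselves, yet their lowest value was still above the highest iTgMir483 value. The mean fell from 37.6 ± 32.9 to 2.05 ± 1.32 CPM (SD, n = 6 each), which was 18.4-fold lower, with a log2FC of -4.20 (SE 0.604, adjusted p = 0.000688). In raw counts, the iTgMir483 livers held 14 to 59 reads of this gene and the Control livers 116 to 1382. Without replicate 1 of both groups the log2FC was -4.50.

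Cyp3a59, the neighbour and close copy of Cyp3a25, rose. It ranged from 53.6 through a median of 81.9 to 117.5 CPM in Control livers, and from 161.0 through 216.7 to 324.6 CPM in iTgMir483 livers. All iTgMir483 livers were above all Control livers, the nearest pair being replicate 1 of each group. The mean was 82.1 ± 22.9 CPM in Control and 221.5 ± 58.8 CPM in iTgMir483 livers (SD, n = 6 each), which was 2.70-fold higher, with a log2FC of 1.43 (SE 0.202, adjusted p = 0.000612). Without replicate 1 of both groups the log2FC was 1.64.

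Cyp3a25, an abundant constitutive member, was not called. Its level ran from 866.0 through a median of 1101 to 1325 CPM in Control livers and from 967.6 through 1105 to 1762 CPM in iTgMir483 livers. The ranges overlapped, and 5 of the 6 iTgMir483 livers lay within the Control range, with replicate 2 above it. The log2FC was 0.17 (SE 0.159, adjusted p = 0.501). The number of Cyp3a59 counts per Cyp3a25 count was 0.0756 ± 0.0100 in Control and 0.185 ± 0.0276 in iTgMir483 livers. Cyp3a25 and Cyp3a59 share 24.7 to 25.0% of their 50-base windows, and the part of shared reads in these values was not tested.

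Cyp3a13, the member that shares no window with the others, was split among the iTgMir483 livers. Its level ranged from 223.0 through a median of 242.6 to 305.1 CPM in Control livers, and from 93.2 through 124.9 to 284.1 CPM in iTgMir483 livers. Replicates 1 and 4 of iTgMir483, at 231.3 and 284.1 CPM, were within the Control range, and the other 4, at 93.2 to 128.5 CPM, were below every Control liver. The log2FC was -0.66 (SE 0.242, adjusted p = 0.0706) and missed the threshold. It passed without iTgMir483 replicate 1 (-0.79, adjusted p = 0.0349), without iTgMir483 replicate 4 (-0.89, adjusted p = 0.00970) and without replicate 1 of both groups (-0.82, adjusted p = 0.0369). The same 2 livers had the highest levels of the acute-phase gene Saa2, at 2076 and 3214 CPM, against 4.62 to 15.6 CPM in the other iTgMir483 livers and 4.22 to 11.2 CPM in Control livers.

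Cyp3a41a and Cyp3a41b, female-predominant and nearly identical, moved together from liver to liver and were not called. Cyp3a41a ranged from 0.125 through a median of 84.7 to 200.6 CPM in Control livers and from 18.1 through 27.4 to 61.7 CPM in iTgMir483 livers. The Control values thus enclosed all iTgMir483 values, because Control replicate 1 had 2 counts of this gene where the other Control livers had 405 to 3344. The log2FC was -1.42 (SE 0.720, adjusted p = 0.183). Without Control replicate 1 it was -1.68 (adjusted p = 0.00936), and without replicate 1 of both groups -1.69 (adjusted p = 0.0140), and Cyp3a41a was then called lower. With limma-voom on all livers it was -0.09.

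Cyp3a41b ranged from 0 through a median of 20.3 to 53.1 CPM in Control livers and from 4.78 through 10.1 to 19.1 CPM in iTgMir483 livers. The value of 0 was again that of Control replicate 1, with 0 of 15894650 counts, which allows a level of up to 0.188 CPM (3 counts, for counting error only). The log2FC was -0.96 (SE 0.673, adjusted p = 0.344), and -1.23 (adjusted p = 0.0713) without replicate 1 of both groups. With Cyp3a41a and Cyp3a41b summed as 1 gene, the log2FC was -1.32 (adjusted p = 0.228). The sum removes the question of how counted reads were split between them, though not that of reads left out because they fit both. The number of Cyp3a41b counts per Cyp3a41a count was 0.230 ± 0.0326 over the 5 Control livers that had both and 0.341 ± 0.0678 in the iTgMir483 livers.

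Cyp3a16, known from the young liver, had the highest coefficient of variation in each group, 107.8% in Control and 89.9% in iTgMir483 livers. It ranged from 0.0627 through a median of 27.5 to 85.1 CPM in Control livers and from 1.601 through 12.1 to 39.9 CPM in iTgMir483 livers. Control replicates 1 and 6 were low, with 1 and 16 counts, and so was iTgMir483 replicate 1, with 22 counts. The log2FC was -0.85 with an SE of 0.877 (adjusted p = 0.533). With limma-voom its sign was positive (0.16, adjusted p = 0.949), so no direction can be given for Cyp3a16. With edgeR it was -1.12 (adjusted p = 0.298) without Control replicate 1 and -0.88 (adjusted p = 0.382) without replicate 1 of both groups.

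**Figure D3:**
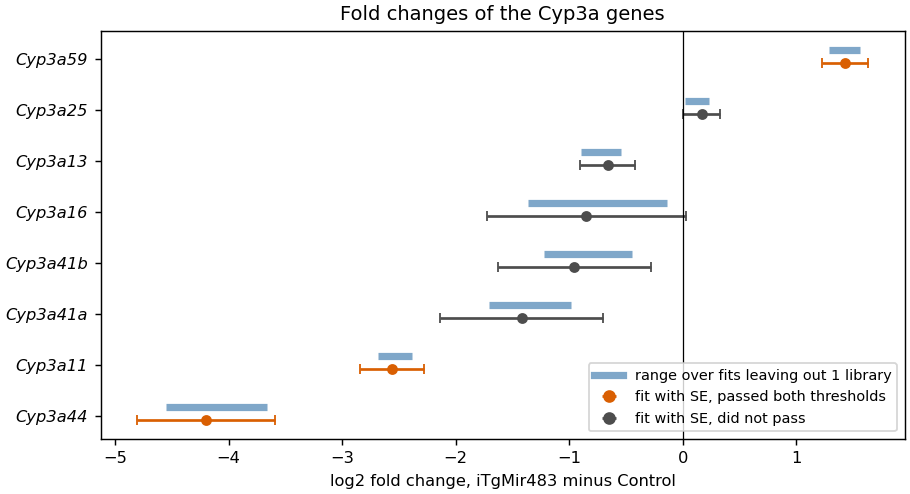
Log2FC of each Cyp3a gene (iTgMir483 minus Control) from edgeR, with an SE derived from its test, and a blue bar for the range over the 12 fits that leave out 1 liver. Cyp3a11 (-2.68 to -2.38), Cyp3a44 (-4.55 to -3.66) and Cyp3a59 (1.29 to 1.56) keep clear of 0, and the bars are longest for Cyp3a16.

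The position of a gene in the cluster gave no single direction. The called genes Cyp3a44 and Cyp3a11 are neighbours, with Cyp3a41a on one side and Cyp3a25 on the other, and Cyp3a59 is at the end of the cluster. Among 12 other protein-coding genes within 100 kb of a member, 7 were tested, of which 3 were higher and 0 lower. These were Pilra (log2FC 0.90, SE 0.206, adjusted p = 0.00869), Pilrb1 (0.73, SE 0.235, adjusted p = 0.0430) and Pilrb2 (1.05, SE 0.295, adjusted p = 0.0238), receptors of myeloid cells, 21.1 to 56.6 kb from Cyp3a13. Gjc3 (-1.03, adjusted p = 0.0504), Azgp1 (-0.23, adjusted p = 0.142) and Zcwpw1 (-0.34, adjusted p = 0.453), also beside Cyp3a13, and Rnf6 beside Cyp3a59 (0.11, adjusted p = 0.383) were not called.

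**Figure D4:**
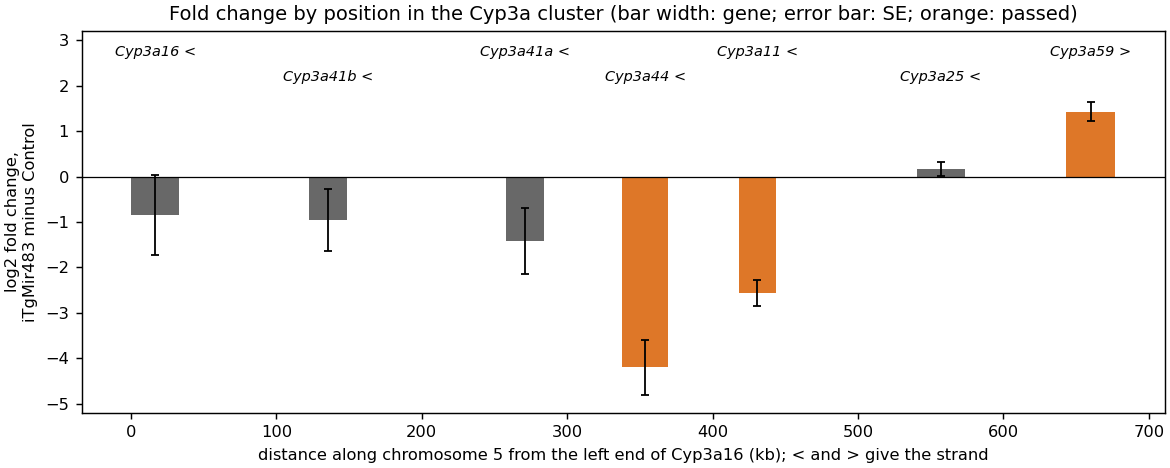
Log2FC (iTgMir483 minus Control, error bars are SE) of the 7 clustered Cyp3a genes against their position in kb from the left end of Cyp3a16. Bar width is the length of the gene, orange marks the genes called changed, and Cyp3a13 lies outside the map. Cyp3a44 and Cyp3a11, both lower, stand side by side, and Cyp3a59, higher, stands last.

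Because the members differ in abundance, the make-up of the family was also described. All Cyp3a counts together were 0.474 ± 0.0467% of the counts in Control livers (0.429 to 0.554%) and 0.235 ± 0.0551% in iTgMir483 livers (0.176 to 0.332%). This sum does not depend on how counted reads were split among the copies. If only uniquely placed reads were counted, reads shared by copies are missing from it and from the shares that follow. Of all Cyp3a counts, Cyp3a11 made up 67.9 ± 4.74% in Control and 25.6 ± 9.33% in iTgMir483 livers. Cyp3a25 made up 21.6 ± 3.58% and 53.9 ± 6.20%. Cyp3a11 was therefore the leading member in each Control liver and Cyp3a25 in each iTgMir483 liver, and the number of Cyp3a11 counts per Cyp3a25 count was 2.63 to 4.87 in Control and 0.191 to 0.742 in iTgMir483 livers. Cyp3a59 made up 1.65 ± 0.434% and 9.96 ± 1.79%, and Cyp3a13 made up 5.17 ± 0.732% and 7.64 ± 4.39%. Cyp3a16, Cyp3a41a, Cyp3a41b and Cyp3a44 summed to 7.47 to 435.1 CPM in Control livers and to 39.4 to 90.3 CPM in iTgMir483 livers.

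**Figure D5:**
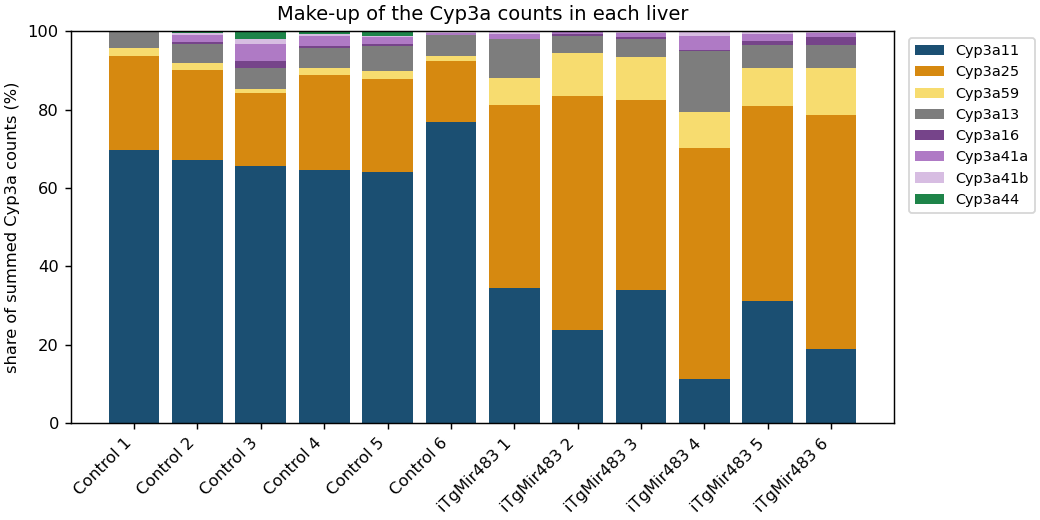
Share of the summed counts of the 8 Cyp3a genes held by each gene, in percent, 1 bar per liver. Cyp3a11 holds 64.1 to 76.7% in Control livers and 11.2 to 34.6% in iTgMir483 livers, and Cyp3a25 and Cyp3a59 hold more in iTgMir483 livers.

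Divided by transcript length, the order of the mean levels also changed. The length was not corrected for shared windows, so the places of Cyp3a41a and Cyp3a41b are uncertain if only uniquely placed reads were counted. In Control livers, in RPKM (CPM per kilobase of transcript), Cyp3a11 stood at 1453 ± 238 and Cyp3a25 at 535.2 ± 85.3. Cyp3a13 followed at 86.8 ± 12.3, then Cyp3a41a at 42.2 ± 33.4, Cyp3a59 at 41.3 ± 11.5, Cyp3a44 at 19.2 ± 16.8, Cyp3a16 at 16.5 ± 17.8 and Cyp3a41b at 10.2 ± 8.94. From Cyp3a41a down, the ranges of mean ± SD of neighbours in this order overlapped. The Control livers of Cyp3a13, at 75.4 to 103.2 RPKM, were all above those of Cyp3a59, Cyp3a44, Cyp3a16 and Cyp3a41b, and overlapped with those of Cyp3a41a. In iTgMir483 livers the RPKM level of Cyp3a25 came first at 600.4 ± 142.1, followed by Cyp3a11 at 246.2 ± 99.4, Cyp3a59 at 111.3 ± 29.6 and Cyp3a13 at 54.9 ± 25.9. By mean ± SD, Cyp3a41a at 15.8 ± 8.21, Cyp3a16 at 9.19 ± 8.26 and Cyp3a41b at 5.29 ± 2.53 RPKM overlapped in the same way, and the other neighbours did not. The last was Cyp3a44 at 1.05 ± 0.672 RPKM. By single iTgMir483 livers, Cyp3a11 (87.5 to 344.7 RPKM) overlapped with Cyp3a59 (80.9 to 163.1 RPKM), and Cyp3a59 with Cyp3a13 (31.5 to 96.1 RPKM). The other rows of the family were near 0. Cyp3a57 held 52 counts over all livers (1 to 12 per liver) and was not tested, and the pseudogene Cyp3a63-ps held 150 counts (log2FC 1.34, SE 0.596, adjusted p = 0.132).

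Within groups, the members fell into sets that moved together. After the group mean was subtracted from log2 CPM, Pearson's r over the 12 livers was 0.993 between Cyp3a41a and Cyp3a41b, 0.863 between Cyp3a25 and Cyp3a59, 0.763 between Cyp3a44 and Cyp3a41b and 0.807 between Cyp3a16 and Cyp3a41b. Without Control replicate 1 these were 0.966, 0.831, 0.737 and 0.494. The highest r of Cyp3a11 with another member was 0.173, with Cyp3a59, and its lowest iTgMir483 value fell in the liver with the highest Cyp3a41a, Cyp3a41b, Cyp3a44 and Cyp3a13 of that group. These values share libraries and, for the close copies, possibly reads, and they are descriptions.

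The genes outside the family whose pattern was most like that of a member, by the same r over 12 livers, are given as a description. They are the highest r picked from all genes tested. The r that such a pick reaches by chance was not tested, so they are not shown to be partners of a member. Nearest to Cyp3a13 were Sardh, a mitochondrial enzyme of one-carbon metabolism (0.947), and the acute-phase genes Saa2 (0.927) and Orm3 (0.920). Nearest to Cyp3a11 were Pitpnb (0.958), Tuba4a (0.947) and Snx4 (0.919), and nearest to Cyp3a59, Rsbn1l (0.929), Ska2 (0.860) and Ulk3 (0.855). For Cyp3a44 they were Lancl2 (0.912), 3110001I22Rik (0.872) and Zfp532 (0.870), for Cyp3a25, Rab3a (0.882) and Rwdd3 (0.881), and for Cyp3a16, Agtr1a (0.927), Chp1 (0.927) and Dcbld1 (0.916). For Cyp3a41a they were the sulfotransferases Sult2a2 (0.932) and Sult2a1 (0.907) with Rsad1 (0.924). Without Control replicate 1 the first 2 of these became -0.28 and -0.50 and Rsad1 0.518, so that likeness rested on this liver. For Cyp3a41b, Rsad1 (0.921), Efna5 (0.913) and Sult2a2 (0.899) became 0.537, 0.668 and -0.33.

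The known regulators of Cyp3a genes were then read from the same fit. Of 19 tested regulators, 0 were higher and 1 was lower, with a median log2FC of -0.19. The one called was Nr1i3, the receptor CAR, at 973.9 ± 176.4 CPM in Control and 403.7 ± 102.0 CPM in iTgMir483 livers (log2FC -1.27, SE 0.173, adjusted p = 0.000478). Its ranges, 810.8 to 1216 and 285.2 to 576.8 CPM, did not overlap. Rxrg (0.35, adjusted p = 0.115) and Onecut1 (0.43, adjusted p = 0.120) came next by p. Nr1i2, the receptor PXR, named for its role outside the rule for genes, had 133.0 ± 27.6 and 111.9 ± 47.9 CPM (log2FC -0.25, SE 0.224, adjusted p = 0.469).

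Among 15 genes of electron supply and haem synthesis, 1 was higher and 0 lower, with a median of 0.06. Hmox1, which degrades haem, was higher (1.15, SE 0.243, adjusted p = 0.00556), Cpox, of haem synthesis, was lower in adjusted p but short of the fold (-0.53, adjusted p = 0.00503), and Cyb5r3 was not called (0.46, adjusted p = 0.0739). Por, again named for its role, had a log2FC of -0.30 (SE 0.336, adjusted p = 0.571). Of 19 other target genes of PXR and CAR, 1 was higher and 4 were lower, with a median of 0.06. The drug exporter Abcb1a was higher (1.18, SE 0.171, adjusted p = 0.000722), the P450 gene Cyp2c50 was lower (-1.26, SE 0.285, adjusted p = 0.00808), and the exporter Abcc3 was lower in adjusted p but short of the fold (-0.58, adjusted p = 0.00572). Without replicate 1 of both groups the counts of targets were 3 higher and 5 lower, and without Control replicate 1 alone 3 higher and 3 lower.

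Genes of growth hormone action and of sex-biased liver expression bear on the female-predominant members. Of 12 growth hormone genes, 1 was higher and 3 were lower, with a median of -0.02. Igf1, the circulating growth factor, fell (-1.51, SE 0.198, adjusted p = 0.000371), as did its carrier Igfals (-0.81, SE 0.191, adjusted p = 0.00985). The feedback inhibitor Cish rose (1.07, SE 0.305, adjusted p = 0.0253). The paper reports raised growth hormone in the plasma of adult mice of this transgenic line. It also reports Igf1 as a target of the over-expressed microRNA. The fall of Igf1 is thus no measure of the hormone level, and its cause in these livers was not tested. Without replicate 1 of both groups 0 of the 12 were higher and 3 lower, so the call of Cish was lost. With only Control replicate 1 left out, 1 was higher and 3 were lower. Of 14 female-biased genes 0 were higher and 6 lower (median -0.62), among them Sult3a1 (-6.11, SE 0.951, adjusted p = 0.00111) and Cyp2c40 (-1.19, SE 0.211, adjusted p = 0.00231). Of 9 tested male-biased genes 0 were higher and 6 lower (median -2.29), among them Slco1a1 (-6.23, SE 1.10, adjusted p = 0.00228), Elovl3 (-2.96, SE 0.529, adjusted p = 0.00243) and Cyp7b1 (-2.29, SE 0.448, adjusted p = 0.00390). Without replicate 1 of both groups 9 female-biased and 7 male-biased genes were lower, and the log2FC of Slco1a1 was -4.96 (-5.01 without Control replicate 1 alone). Leaving out Control replicate 1 alone gave 9 female-biased genes lower, and 1 male-biased gene higher and 5 lower. The part of these changes in that of Cyp3a44 was not tested.

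Markers of zones and of other cell types moved as well. Of 10 periportal genes 0 were higher and 6 lower (median -0.76), with Sult5a1 (-4.51, adjusted p = 0.000210), the histidine-degrading enzyme Hal (-1.45, adjusted p = 0.000348) and the urea cycle enzyme Ass1 (-1.04, adjusted p = 0.00274). Of 12 pericentral genes, the zone in which drug-metabolising P450 enzymes are enriched, 0 were higher and 1 was lower (median 0.08), namely glutamine synthetase, Glul (-0.62, adjusted p = 0.00974), while the P450 gene Cyp2e1 (-0.43, adjusted p = 0.0405) was short of the fold and Tbx3 was not called (-0.31, adjusted p = 0.244). Of 14 acute-phase and cytokine genes, 6 were higher and 1 was lower (median 0.93), with Saa2 (7.04, adjusted p = 0.00932) and Lcn2 (3.87, adjusted p = 0.00916) higher and Crp lower (-0.61, adjusted p = 0.00775). The Saa2 mean was carried by iTgMir483 replicates 1 and 4, as its values above show, and the part of the acute-phase genes in the Cyp3a values was not tested.

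Hepatocyte markers were abundant in every liver, as the label liver requires, and 3 of 8 were lower (0 higher), their summed level being 128970 to 180230 CPM in Control and 68506 to 137510 CPM in iTgMir483 livers. In this sum Alb alone averaged 111910 CPM in Control and 76071 CPM in iTgMir483 livers, and it was not called (-0.56, adjusted p = 0.160). Macrophage markers were higher for 7 of 7 genes (283.3 to 423.5 against 452.1 to 1267 CPM), cholangiocyte markers for 3 of 5 tested (21.0 to 46.1 against 60.8 to 89.4 CPM) and neutrophil markers for 2 of 2 tested (0.752 to 2.51 against 2.70 to 20.2 CPM). The called cholangiocyte markers were Spp1, Epcam and Krt7, and Spp1 alone averaged 25.6 CPM in Control and 63.6 CPM in iTgMir483 livers. Krt19 (0.10, adjusted p = 0.825) and Sox9 (0.26, adjusted p = 0.425) were not called. Of the markers of stellate cells (7 tested), endothelium (7), lymphocytes (2) and intestine (1) 0 were called, though 2 stellate cell markers were higher without Control replicate 1 and without replicate 1 of both groups, and the intestinal genes Alpi, Cdx1 and Cdx2 had 0 counts in all livers. The part of these cell types in the Cyp3a values was not tested.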

How the data were processed

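Liver RNA from 12 mice was made into stranded mRNA libraries, sequenced and aligned by the authors with STAR to GRCm38, and they deposited raw counts per Ensembl gene. The strand setting of the counting is not given in the sources used here. All 12 columns matched a sample label (0 columns of no sample, 0 rows without a gene name). Symbols and positions came from GENCODE M21 on the same build, another release than the authors' annotation (55141 identifiers with a symbol, 260 without). Promoter and miRNA sequences are from RefSeq.

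Counts were filtered with filterByExpr, scaled by TMM and tested with glmQLFTest of edgeR 4.0.16 (R 4.3.3). P-values were adjusted by Benjamini-Hochberg over 13205 genes, and calls needed an adjusted p below 0.05 together with a change above 1.5-fold. Alternatives used limma 3.58.1 and DESeq2 1.42.0. SE values belong to log2 fold changes. CPM are TMM-scaled counts per 1000000, and RPKM are these divided by the length of 1 protein-coding transcript per gene. Correlations used log2 CPM with a prior count of 2. Tests of the fit on simulated data for this comparison, with 13205 genes and changes in 50 genes per size, recovered 45 (log2 fold change -2), 44 (-1), 41 (1) and 50 (2), with 9 false calls. The simulation used a spread set by abundance alone and no liver that stood apart. It does not measure recovery for members that vary more among livers.

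Named genes were the members, other Cyp3a rows with at least 10 counts, coding genes within 100 kb, the 3 genes of smallest p per list, the 3 most alike genes per member, and Mir483. Some genes that this rule names are not reported here. Lists were described by counts of calls. The members and lists were chosen with earlier results of these data known. Replicate numbers occur in both groups, but the labels tie them to no litter, so the test was unpaired. Deviations of same-numbered livers correlated at 0.440, 0.042, 0.038, 0.034, 0.167 and 0.053. The labels also give animal numbers, which are adjacent for replicate 1 of Control and replicate 1 of iTgMir483. They are not said to mark litters or batches, and a pairing or trend by them was not tested. Alternatives were other scalings, filters, tests and thresholds, a replicate block, leaving out each liver, and Cyp3a41a with Cyp3a41b as 1 gene.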

Additional observations from a re-analysis of the deposited data

Results flagged for a closer look

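The highest or lowest liver was compared with its nearest neighbour in 18 groups of 6 values (the CPM of the members and the share of counts of the family), and in 2 groups the gap was too large a part of the whole range by Dixon's critical value for 6 samples. If the values were normally distributed, chance alone would give about 0.9 such groups. That was not tested for these CPM values, and groups such as those of Cyp3a41a and Cyp3a41b are not independent. For Cyp3a16 in Control livers the gap was 0.649 of the range, because replicate 3 had 85.1 CPM and the others 0.0627 to 29.9 CPM. For Cyp3a25 in iTgMir483 livers the gap was 0.720 of the range, because replicate 2 had 1762 CPM and the others 967.6 to 1190 CPM. The same liver had the highest Cyp3a59 value of its group, 324.6 CPM.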

How the results depend on the processing

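Cyp3a11, Cyp3a44 and Cyp3a59 kept their direction and their call under each of 23 alternatives, and Cyp3a25 was called under none of its 23. Cyp3a13 was called lower with limma-voom (-0.77, adjusted p = 0.0393), DESeq2 (-0.68, 0.0329), the replicate block (-0.78, 0.0414) and without replicate 1 of both groups (-0.82), and ran from -0.89 to -0.54 when 1 liver was left out. Cyp3a41a was called without Control replicate 1 and without replicate 1 of both groups (-1.69), with a range of -1.71 to -0.99 over single livers left out. Under limma-voom the signs of Cyp3a16 (0.16, adjusted p = 0.949) and Cyp3a41b (0.37, adjusted p = 0.872) were reversed, and the cause was not tested. A minimum of 10 counts in every library left Cyp3a16, Cyp3a41a and Cyp3a41b untested, since Control replicate 1 had 0 to 2 counts of them. The members called were 3 to 4 with 1 liver left out, 4 with the replicate block and 5 without replicate 1 of both groups. A test against a fold change of 1.5 gave 226 changed genes (167 higher, 59 lower) and 15 in the pathway lists, where 36 distinct genes were called otherwise, and the adjusted p alone gave 2457 (1489 higher, 968 lower). Single livers left out gave 1190 to 1653 changed genes, 28 to 42 in the lists, and a Cyp3a share of 0.458 to 0.483% in Control and 0.216 to 0.247% in iTgMir483 livers. The replicate block gave 1106 higher and 424 lower genes and changed no call of a member other than Cyp3a13. Only for Control replicates 1 and 5 was the iTgMir483 liver of the same number the best match. iTgMir483 replicate 5 was also the best match of Control replicates 4 and 6. Without a scaling factor 89.4% of calls were higher (1650 against 195), where 75.5% were higher with TMM (1110 against 360), the median of all genes moved to 0.15, and the calls of the members were the same 3.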
